A study of Mus musculus with 15 samples.

Results

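The genes of MHC class I and class II antigen presentation were followed across 5 populations of mononuclear phagocytes sorted from the small intestinal lamina propria of wild-type mice in the steady state. The list holds 40 genes, chosen by function: the class II chains with their loading factors and transcription factors, the class I chains with the immunoproteasome, peptide transporter and loading complex, a few class I-like molecules, and factors used in cross-presentation. A gene counted as measured where the array carried a probeset that names that gene and no other, and 34 of the 40 were measured among 19938 genes in all. Of the 6 that were not, H2-K1 and H2-D1 share their probesets with each other, H2-DMb1 and H2-DMb2 share a probeset, H2-T23 shares its probeset with H2-T-ps, and Lnpep is not listed for any probeset used here. The classical class I heavy chains are therefore outside this account.

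The populations were 4 subsets of dendritic cells (DCs), all sorted as CD64- and CD11c+MHCII+ and divided by CD103 (the integrin chain encoded by Itgae) and CD11b (encoded by Itgam), and the CD64+ macrophages, sorted as Ly6C-MHCII+CD64+CD11b+ cells. Each was measured on 3 arrays. The DC subsets are called here double-positive (CD103+CD11b+), CD103 single-positive (CD103+CD11b-), CD11b single-positive (CD103-CD11b+) and double-negative (CD103-CD11b-) DCs. None of the groups carried a genetic change or received a treatment, and the labels do not give the age of the mice or say how many were pooled for an array. All 5 gates required MHC class II on the cell surface, so high class II mRNA was set by the sort and is not a finding. Values are log2 expression from robust multi-array averaging (RMA), and the median probeset of an array lay between 4.74 and 4.86. Levels of different genes come from different probes and were not compared with each other.

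The sort genes followed the labels. Itgae lay between 10.24 and 10.96 on the 6 CD103+ arrays and between 7.54 and 8.96 on the 6 CD103- DC arrays. Itgam lay between 9.44 and 10.42 on the 9 arrays of CD11b+ cells and at or below 7.02 on the others. Fcgr1, which encodes CD64, was at 8.69 to 9.08 in macrophages and at or below 5.02 in DCs. Genes listed for other cell types were also detected, and whether the sorted cells made them or other cells were carried along was not tested. The mean of 7 plasma cell genes was 9.10 to 9.95 in double-negative DCs against 6.93 to 8.70 in the other DC subsets and 8.05 to 9.08 in macrophages. That of 7 plasmacytoid DC genes was 7.94 to 8.20 in double-negative DCs, 6.45 to 7.44 in the other DC subsets and 7.62 to 8.04 in macrophages. The mean of 12 epithelial genes was 7.94 on replicate 2 of the macrophages, against 6.64 and 6.55 on the others. Of these genes Fabp1 (10.31, 9.22 and 10.09) and Fabp2 (10.89, 9.98 and 10.35) were instead lowest on that array. Their DC means were lower, at 6.85 to 7.90 and 7.55 to 8.81. The mean of 9 pancreatic acinar genes reached 8.81 on replicate 2 of the CD103 single-positive DCs, against 5.11 on the lowest array of that subset.

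Class II molecules bind peptides made in endosomes and show them to CD4+ T cells. Their chains travel with the invariant chain (Cd74), the remnant of which is exchanged for peptide by H2-DM under the restraint of H2-O, and the whole set is switched on by the coactivator CIITA, which docks on RFX and NF-Y bound to the X box and Y box of each promoter. Class I molecules take peptides cut by the proteasome, carried into the endoplasmic reticulum by the TAP transporter, and show them to CD8+ T cells, with NLRC5 as the CIITA-like coactivator. Cross-presentation, the display of engulfed antigen on class I, is a property for which CD103 single-positive DCs (the cDC1 lineage) are known.

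Of the 34 measured members 12 lie on chromosome 17, where the mouse MHC is found, and some promoters there are shown to set the letters beside the values of those genes given below. The bases were taken from RefSeq on build GRCm38.p6, each printed 5′ to 3′ on the plus strand of the chromosome, with the X box (AG, any 2 bases, AC, any base, GATG, or a looser form that frees the G of GATG) and the Y box (CCAAT, read on either strand as CCAAT or ATTGG) in capitals. The H2-Eb1 stretch is chr17:34305707-34305866, the H2-Oa stretch is chr17:34092219-34092378 and the H2-Ob stretch is chr17:34238745-34238904, each the 160 bases just before the start site. The last stretch, chr17:34187331-34187555, is the 225 bases between the start sites of Psmb9, which is read to the left, and Tap1, which is read to the right.
H2-Eb1: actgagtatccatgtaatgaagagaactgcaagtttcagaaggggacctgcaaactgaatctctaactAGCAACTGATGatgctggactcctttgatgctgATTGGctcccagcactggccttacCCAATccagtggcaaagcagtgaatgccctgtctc
H2-Oa: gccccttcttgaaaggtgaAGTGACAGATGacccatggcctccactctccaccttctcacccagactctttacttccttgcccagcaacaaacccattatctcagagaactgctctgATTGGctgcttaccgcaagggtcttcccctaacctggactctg
H2-Ob: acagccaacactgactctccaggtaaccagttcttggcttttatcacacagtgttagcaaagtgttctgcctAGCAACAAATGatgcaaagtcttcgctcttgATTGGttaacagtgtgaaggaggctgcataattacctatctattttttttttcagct
Psmb9 and Tap1: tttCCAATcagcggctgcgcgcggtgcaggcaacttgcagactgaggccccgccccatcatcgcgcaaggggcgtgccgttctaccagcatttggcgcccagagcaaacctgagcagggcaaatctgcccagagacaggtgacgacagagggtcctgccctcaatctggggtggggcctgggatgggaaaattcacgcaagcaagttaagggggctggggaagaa
The X box letters began 92 bases before the start site in H2-Eb1 and 141 bases before it in H2-Oa, and the looser letters 88 bases before it in H2-Ob. The Y box stood 59 and 35 bases before the start in H2-Eb1, 43 bases before it in H2-Oa and 57 bases before it in H2-Ob. Among 32851 mouse promoters of 300 bases, 0.968% held the X box letters, 3.09% the looser letters (which take in every X box match) and 37.4% a Y box. Of the 31 listed genes with a promoter sequence, 4 held the X box (H2-Eb1, H2-DMb1, H2-Oa and Psmb10), 7 the looser form and 23 a Y box. The interferon element TTCNNTTTC was in 4 of the 31, B2m among them, and in 8.56% of all promoters. The gamma-activated site TTCNNNGAA was in 3 of the 31, Psmb8 among them, and in 8.30% of all promoters. The printed stretches match by letters only, and binding was not measured.

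Across all 5 populations the means of 14 of the 34 members spanned less than 0.5 log2 units, and those of 6 members spanned more than 1. The same 6 passed the test for any difference (limma F test, adjusted p under 0.01 with a span over 1), namely Lgmn, H2-Oa, H2-Ob, Wdfy4, Cd1d1 and Tap1, where 10.7% of all genes passed. Without a minimum span 14 members passed, against 19.6% of all genes. The replicate SD within a population had a median of 0.13 over the members.

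**Figure D1:**
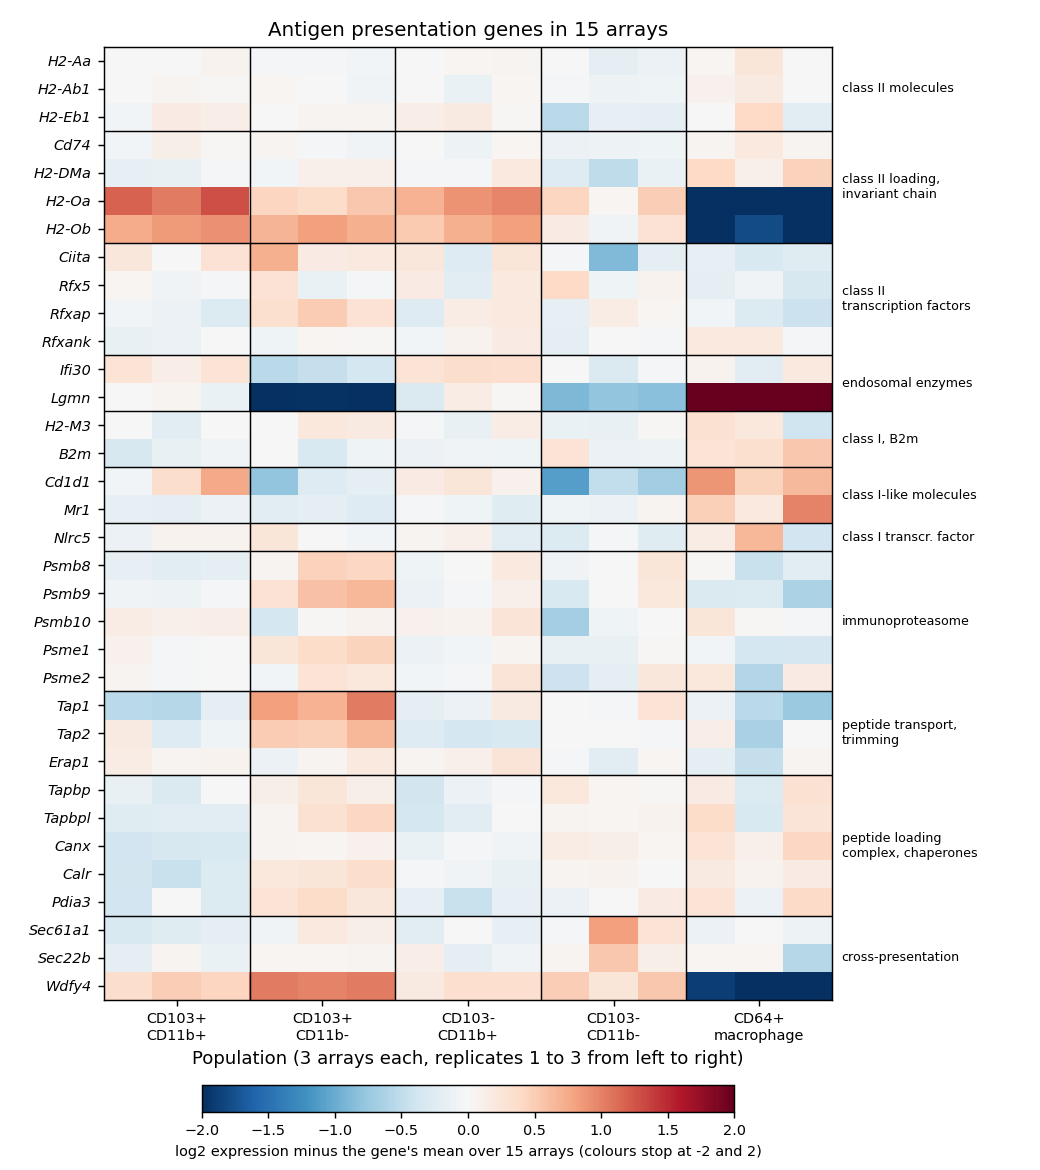
Each row is a measured member and each column an array, grouped by population, with colour giving the log2 expression minus that gene's mean over the 15 arrays (scale stops at -2 and 2). H2-Oa, H2-Ob and Wdfy4 are dark blue in the 3 macrophage arrays, Lgmn is dark red there and dark blue in the 3 CD103 single-positive DC arrays, and Tap1 is reddest in CD103 single-positive DCs.

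The class II chains stood at nearly the same level everywhere, toward the top of the scale. The highest gene of an array lay between 13.37 and 13.58, and whether differences are flattened at such levels was not tested. H2-Aa, the alpha chain of I-A, measured 12.22, 12.22 and 12.29 in double-positive DCs, 12.18, 12.18 and 12.17 in CD103 single-positive DCs and 12.22, 12.26 and 12.28 in CD11b single-positive DCs. It measured 12.22, 12.03 and 12.11 in double-negative DCs and 12.26, 12.47 and 12.23 in macrophages. The CD103 single-positive arrays lie just under those of both CD11b+ subsets and of the macrophages, the double-negative arrays lie just under those of the macrophages, and the other ranges overlap or touch. The macrophage minus DC difference of H2-Aa was 0.12 with a 95% interval from -0.01 to 0.26 (adjusted p = 0.212, limma). H2-Ab1, the beta chain, had population means from 12.28 to 12.45 and a macrophage minus DC difference of 0.11 with an interval from -0.02 to 0.24. Cd74, the invariant chain, had means from 12.91 to 13.11. Its macrophage minus DC difference was 0.13 (adjusted p = 0.155, limma).

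H2-Eb1, the I-E beta chain, had its lowest mean in double-negative DCs, at 11.72 ± 0.21 (SD, n = 3) against 12.06 to 12.13 in the other DC subsets, a difference of -0.37 that did not pass (interval -0.61 to -0.13, adjusted p = 0.0759, limma). H2-Ea, the partner chain, which RefSeq annotates as a transcribed pseudogene, had population means from 4.61 to 5.04, close to the array median; it was picked after its values were seen. H2-DMa, the alpha chain of the peptide exchanger, was higher in macrophages, at 11.86, 11.57 and 11.92, than in the DC subsets, whose means were 11.16 to 11.51. The difference was 0.40 (SE 0.09, adjusted p = 0.00399, limma), past the p threshold but under a log2 difference of 1, and the lowest macrophage array lay below the highest DC array.

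**Figure D2:**
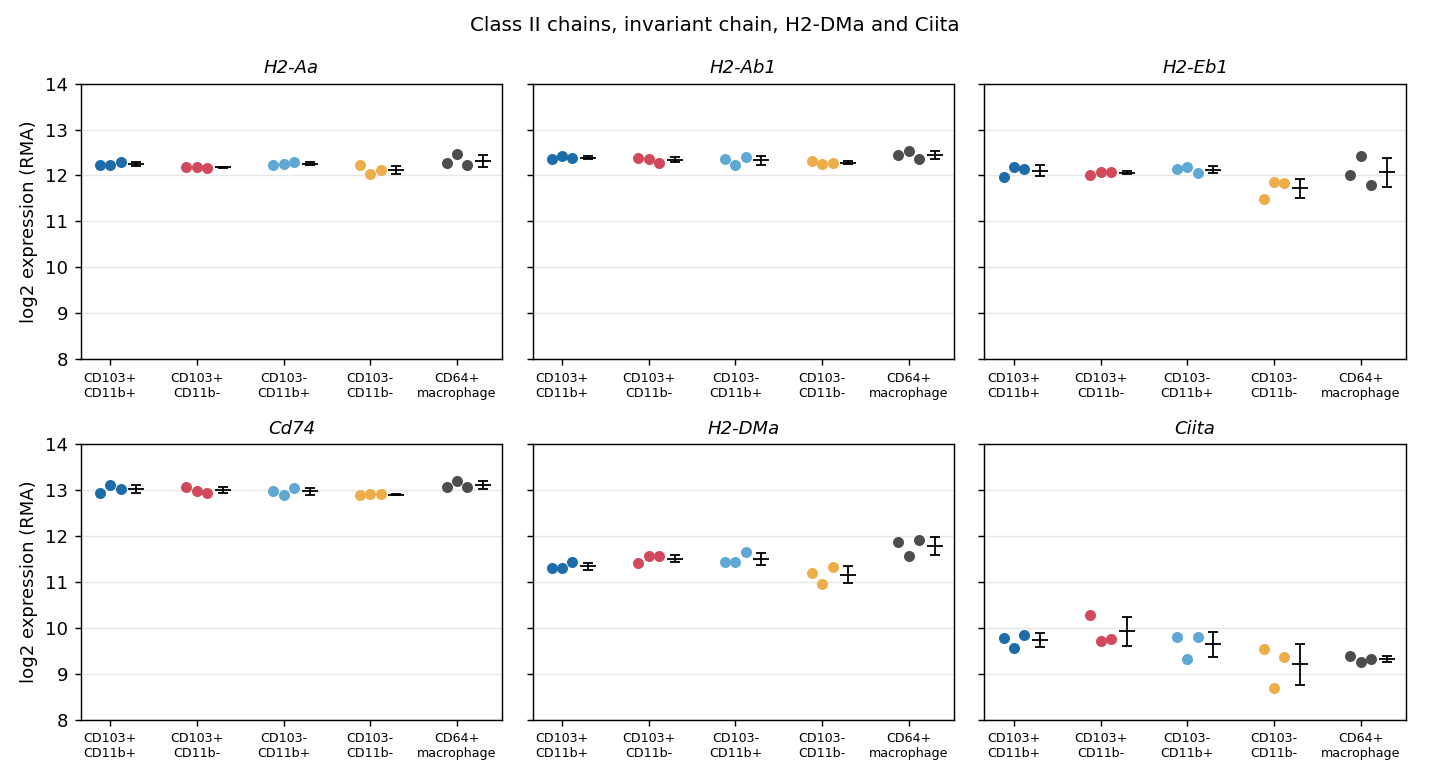
Points are single arrays and the bar beside them the mean with its SD (n = 3), as log2 expression, for the class II chains, Cd74, H2-DMa and Ciita in the 5 populations. The axis does not start at 0. H2-Aa, H2-Ab1 and Cd74 stay within a band of 0.21 between population means, while Ciita spreads over 0.72.

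The transcription factors of class II did not pass in any contrast of the populations. Ciita measured 9.79, 9.56 and 9.86 in double-positive DCs, 10.28, 9.73 and 9.77 in CD103 single-positive DCs and 9.79, 9.32 and 9.81 in CD11b single-positive DCs. It measured 9.55, 8.69 and 9.38 in double-negative DCs and 9.40, 9.26 and 9.32 in macrophages. The lowest value, 8.69, was replicate 2 of the double-negative DCs. The double-positive and CD103 single-positive arrays all lie above those of the double-negative DCs and the macrophages, and the other ranges overlap. The difference of double-negative DCs from the other subsets was -0.56 (interval -0.92 to -0.20, adjusted p = 0.0697, limma), and that of macrophages from DCs was -0.30 (interval -0.65 to 0.05). Of the RFX subunits, Rfx5 had means of 6.57 to 6.89 and Rfxank of 6.38 to 6.58. Rfxap was at 7.68, 7.87 and 7.65 in CD103 single-positive DCs and at 7.30, 7.24 and 7.09 in double-positive DCs, with no overlap, but the difference of -0.52 missed the threshold (adjusted p = 0.0153, limma).

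Among the measured class II chains, loading factors and transcription factors of the list, only H2-Oa and H2-Ob passed both thresholds between macrophages and DCs. H2-Oa measured 6.83, 6.63 and 6.97 in macrophages. It measured 10.78, 10.65 and 10.89 in double-positive DCs, 10.03, 9.98 and 10.15 in CD103 single-positive DCs, 10.30, 10.50 and 10.58 in CD11b single-positive DCs and 10.04, 9.64 and 10.1025 in double-negative DCs. No macrophage array came near any of the 12 DC arrays. H2-Oa fell by 3.49 on the log2 scale in macrophages against the mean of the DC subsets (SE 0.10, adjusted p = 3.4e-12, limma), an 11.2-fold difference.

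H2-Ob, the other chain of the H2-O dimer, measured 6.12, 7.13 and 6.37 in macrophages. Its DC means were 9.77 ± 0.08 in double-positive, 9.67 ± 0.08 in CD103 single-positive, 9.61 ± 0.15 in CD11b single-positive and 9.05 ± 0.18 (SD, n = 3) in double-negative DCs. The lowest DC array was at 8.86, well above the highest macrophage array. H2-Ob fell by 2.98 (SE 0.15, adjusted p = 9.3e-10, limma), a 7.91-fold difference. The promoters printed above hold X box and Y box letters in H2-Oa, in H2-Ob in the looser form, and in H2-Eb1, whose level in macrophages (12.07 ± 0.32) lay among those of the DC subsets. H2-Aa and H2-DMa held a Y box and neither form of the X box. A link between these letters and the levels was not tested.

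Among DCs H2-Oa was not level. It was higher in double-positive than in CD103 single-positive DCs by 0.72 (SE 0.10, adjusted p = 0.00049, limma), with no overlap. The step from CD103 single-positive to CD11b single-positive DCs was 0.41 (adjusted p = 0.0193) and that between the CD11b+ subsets 0.31 (adjusted p = 0.174), and neither passed. In double-negative DCs it fell by 0.50 from the mean of the other subsets (SE 0.10, adjusted p = 0.00884, limma). H2-O is also made by B cells. The mean of 11 measured B cell genes was 5.33 to 5.59 in macrophages and 4.56 to 5.35 in DCs, Ms4a1 (CD20) had means of 3.71 to 4.09 and Pax5 of 4.38 to 4.82 in all 5 populations. Cd79b had means of 6.09 to 8.99, highest in macrophages (8.99) and double-negative DCs (8.96). Cd79a had means of 5.16 to 7.97, highest in double-negative DCs. Cd22 had a mean of 7.86 in macrophages and means of 5.20 to 5.56 in DCs. The part of B cell RNA in the H2-O values was not tested.

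Lgmn showed the widest range of all members, 4.97 log2 units between population means. It encodes legumain, an asparaginyl endopeptidase that opens antigens and the invariant chain in lysosomes. It measured 11.92, 11.53 and 12.13 in macrophages, 8.93, 8.98 and 8.80 in double-positive DCs and 8.64, 9.07 and 8.95 in CD11b single-positive DCs. Double-negative DCs followed at 8.02, 8.13 and 8.08, and CD103 single-positive DCs were lowest at 6.89, 6.95 and 6.84. The CD11b+ subsets overlap with each other and no other pair of populations does. Lgmn rose by 3.67 in macrophages over the DC mean (SE 0.11, adjusted p = 3.4e-12), 12.7-fold. It was 2.01 higher in double-positive than in CD103 single-positive DCs (SE 0.11, adjusted p = 4.4e-07) and 1.99 higher in CD11b single-positive than in CD103 single-positive DCs (SE 0.11, adjusted p = 4.4e-07, limma).

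Lgmn is a strong macrophage gene, and macrophage genes varied among the DC subsets. The mean of 11 macrophage genes was 10.08 to 10.29 in macrophages, 6.57 to 7.06 in CD11b single-positive DCs, 5.33 to 6.57 in double-negative DCs, 5.59 to 5.85 in double-positive DCs and 4.74 to 4.95 in CD103 single-positive DCs. Of these 11 genes 10 were above 0 in double-positive minus CD103 single-positive DCs, with a median of 0.54, and 11 in CD11b single-positive minus CD103 single-positive DCs, with a median of 1.53. Between the CD11b+ subsets 2 of the 11 were higher in double-positive DCs, with a median of -0.93. The difference of Lgmn between the CD11b+ subsets was 0.02, with a 95% interval from -0.23 to 0.26. The part of macrophage RNA in the Lgmn values was not tested. In sorted bulk samples fewer cells of a type and less RNA per cell cannot be told apart.

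Ifi30, the lysosomal thiol reductase that opens disulphide bonds, was lowest in the same subset. It measured 11.04, 11.12 and 11.22 in CD103 single-positive DCs, 11.85, 11.71 and 11.85 in double-positive DCs and 11.85, 11.92 and 11.91 in CD11b single-positive DCs. The CD103 single-positive arrays lay under all others, without overlap. The difference was 0.67 for double-positive DCs (SE 0.08, adjusted p = 0.00018) and 0.77 for CD11b single-positive DCs (SE 0.08, adjusted p = 7e-05, limma). Macrophages (11.60 ± 0.21) did not differ from the DC mean (0.02, interval -0.16 to 0.21).

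**Figure D3:**
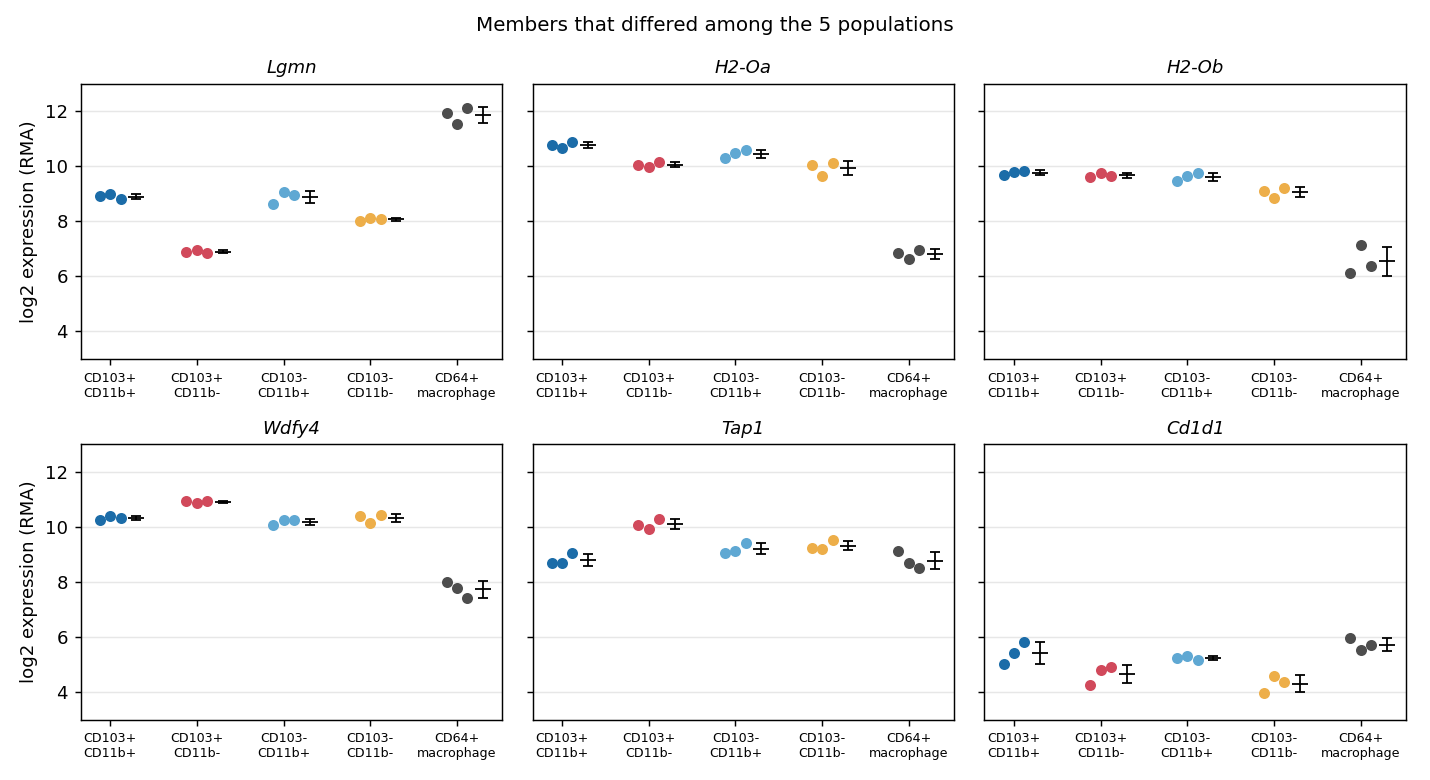
Points are single arrays and the bar beside them the mean with its SD (n = 3), as log2 expression, for the 6 members whose populations differed by more than 1. The axis does not start at 0. The macrophage arrays stand alone above for Lgmn and alone below for H2-Oa, H2-Ob and Wdfy4, and Tap1 is highest in CD103 single-positive DCs.

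In double-positive minus CD103 single-positive DCs, 2 of 34 members passed with a log2 difference over 1 (Lgmn up, Tap1 down), and 3.28% of all genes did (1.95% higher and 1.32% lower). In CD11b single-positive minus CD103 single-positive DCs only Lgmn did, upwards, and 3.32% of all genes (2.02% higher and 1.3% lower). With no minimum size 9 members passed in the first (3 higher and 6 lower, against 8.73% of all genes, 4.35% higher and 4.38% lower) and 7 in the second (2 higher and 5 lower, against 8.5% of all genes, 4.47% higher and 4.03% lower). The median difference over the members was -0.14 and -0.09, against 0.03 and 0.04 over all genes. The 3 arrays of CD103 single-positive DCs serve as the reference in each.

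Tap1 and Tap2 encode the subunits of the transporter. Tap1 measured 10.06, 9.94 and 10.29 in CD103 single-positive DCs, 8.71, 8.68 and 9.07 in double-positive DCs and 9.07, 9.13 and 9.43 in CD11b single-positive DCs. It measured 9.25, 9.20 and 9.52 in double-negative DCs and 9.13, 8.70 and 8.51 in macrophages. The CD103 single-positive arrays lay above all others. The difference was -1.28 in double-positive DCs (SE 0.14, adjusted p = 7.3e-05) and -0.89 in CD11b single-positive DCs (SE 0.14, adjusted p = 0.0011, limma), which passed the p threshold but not the size. Without the array richest in pancreatic RNA in each population, an alternative chosen after seeing the data, Tap1 passed both thresholds in CD11b single-positive DCs.

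Tap2 measured 8.12, 8.09 and 8.28 in CD103 single-positive DCs, 7.79, 7.35 and 7.53 in double-positive DCs and 7.36, 7.26 and 7.32 in CD11b single-positive DCs, again with CD103 single-positive DCs highest and no overlap. The differences were -0.61 (SE 0.11, adjusted p = 0.00303) and -0.85 (SE 0.11, adjusted p = 0.00029, limma). Erap1, which trims peptides inside the endoplasmic reticulum, differed by 0.05 (interval -0.17 to 0.26) and 0.09 (interval -0.12 to 0.30).

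Psmb9 starts 225 bases from Tap1, across the stretch printed above, and moved in the same direction. It is a catalytic subunit of the immunoproteasome, the form of the proteasome that interferons induce. It measured 11.86, 12.14 and 12.24 in CD103 single-positive DCs, 11.49, 11.46 and 11.52 in double-positive DCs and 11.45, 11.53 and 11.67 in CD11b single-positive DCs, with no overlap. The differences were -0.59 (SE 0.10, adjusted p = 0.00272) and -0.53 (SE 0.10, adjusted p = 0.00568, limma). The other subunits did not pass. Psmb8 differed by -0.50 (adjusted p = 0.0146) and -0.28 (adjusted p = 0.168), Psmb10 by 0.22 and 0.22, the activator subunit Psme1 by -0.33 and -0.39 (adjusted p = 0.0101 in the second), and its partner Psme2 by -0.13 and -0.09. Of 15 proteasome genes outside the members none was called in either comparison, and their medians were -0.21 and -0.18, with all 15 under 0 in both.

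In the loading complex, all 5 of Tapbp, Tapbpl, Canx, Calr and Pdia3 were below 0 in both comparisons, and 3 passed the p threshold in at least 1, beside the 4.38% and 4.03% of all genes that were lower by p. Calr, the chaperone calreticulin, measured 10.76, 10.79 and 10.89 in CD103 single-positive DCs against 10.18, 10.0994 and 10.27 in double-positive DCs, a difference of -0.63 (SE 0.08, adjusted p = 0.00023). Canx, calnexin, differed by -0.40 in double-positive DCs (SE 0.07, adjusted p = 0.00301), and Pdia3, the ERp57 oxidoreductase, by -0.54 in CD11b single-positive DCs (SE 0.11, adjusted p = 0.00758, limma). Tapbp, tapasin, differed by -0.30 and -0.33 and Tapbpl, the peptide editor TAPBPR, by -0.48 and -0.45, and neither passed. Of 7 other chaperones of the endoplasmic reticulum none was called, with medians of -0.37 and -0.26.

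**Figure D4:**
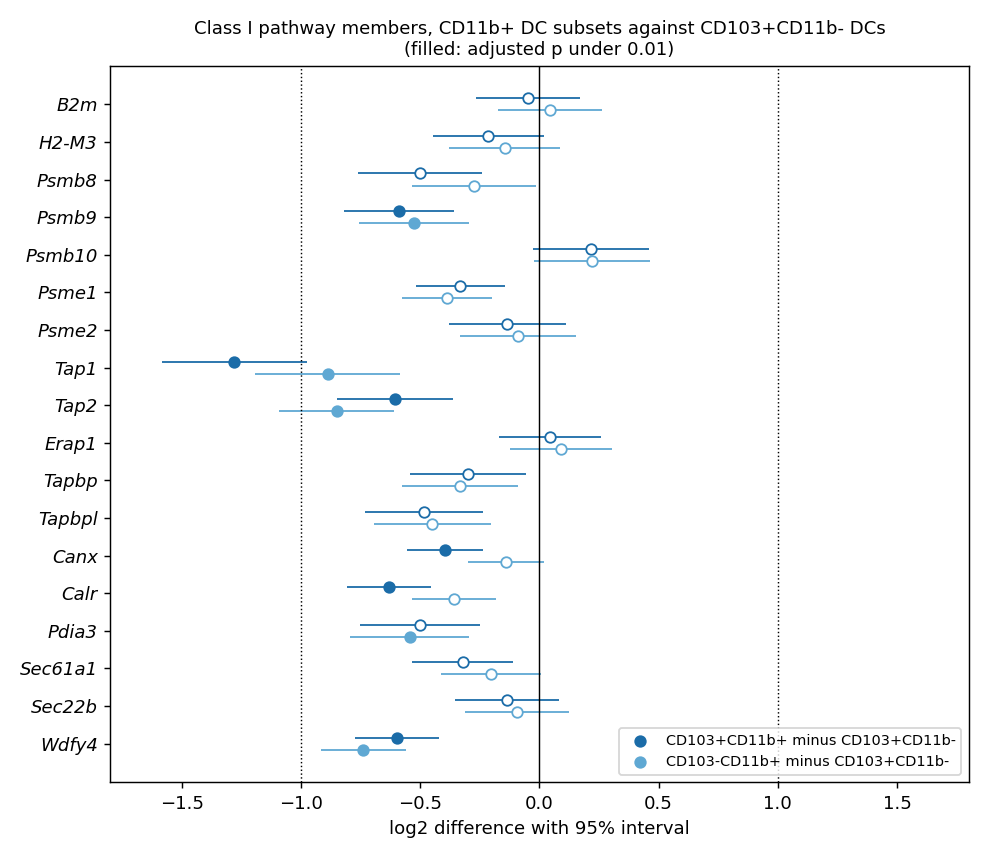
Log2 differences of 18 class I pathway members between each CD11b+ DC subset and CD103 single-positive DCs, with 95% intervals (limma, 3 arrays a subset), filled where the adjusted p was under 0.01; dotted lines mark -1 and 1. Tap1, Tap2, Psmb9 and Wdfy4 are filled in both comparisons, and most other points lie left of 0 with Psmb10 and Erap1 to the right.

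The invariant partner of all class I molecules did not take part. B2m, beta-2 microglobulin, measured 11.90, 11.59 and 11.81 in CD103 single-positive DCs, 11.58, 11.76 and 11.83 in double-positive DCs and 11.78, 11.84 and 11.82 in CD11b single-positive DCs, which overlap. The differences were -0.05 (interval -0.27 to 0.17) and 0.05 (interval -0.17 to 0.26). It was higher in macrophages, at 12.17, 12.23 and 12.44, by 0.47 over the DC mean (SE 0.09, adjusted p = 0.00142, limma). H2-M3, a class I molecule for formylated peptides, had means of 8.07 to 8.29.

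Nlrc5 gave a different answer by probeset. The probeset with the highest mean, which stands for the gene here, measured 8.10, 7.86 and 7.81 in CD103 single-positive DCs and 7.75, 7.93 and 7.93 in double-positive DCs, which overlap, with a difference of -0.05 (interval -0.30 to 0.20). Nlrc5 has 19 probesets on this array. All 19 were below 0 in double-positive minus CD103 single-positive DCs, with a median of -0.75 and a range from -1.11 to -0.05, and 6 passed the p threshold when each of 21789 probesets was fitted on its own. In CD11b single-positive minus CD103 single-positive DCs 18 of 19 were below 0, with a median of -0.44, and 1 passed. The mean of the 19 differed by -0.65 (SE 0.14, adjusted p = 0.00973) and by -0.47 (SE 0.14, adjusted p = 0.0531, limma). The probesets are parts of 1 gene and not replicates, and this look at them was added after the values were seen.

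**Figure D5:**
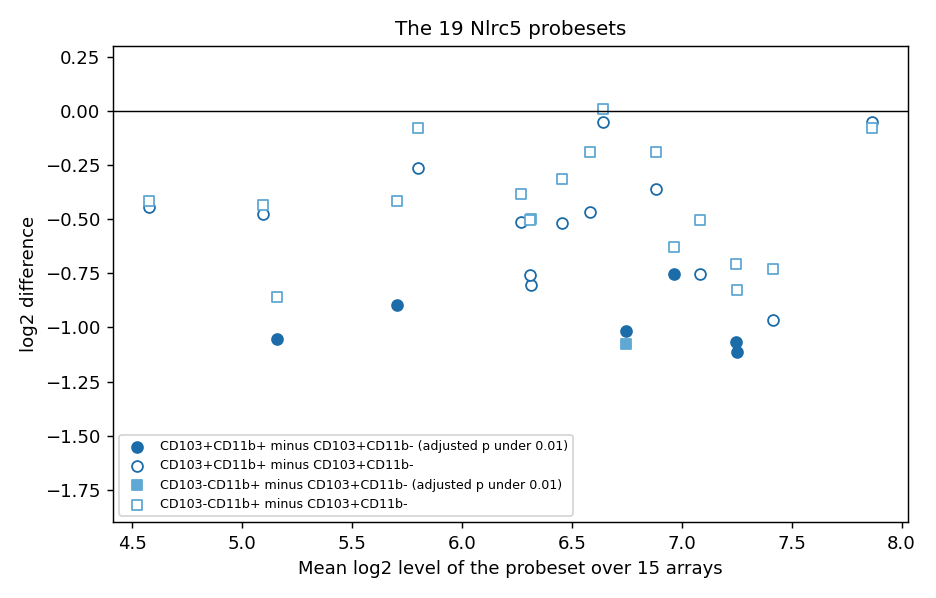
Each point is 1 of the 19 Nlrc5 probesets, placed by its mean log2 level over 15 arrays and its log2 difference from CD103 single-positive DCs, circles for double-positive and squares for CD11b single-positive DCs, filled where the adjusted p was under 0.01. The brightest probeset, at the right, lies at -0.05 and -0.08, while the circles have a median of -0.75.

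Wdfy4, a vesicle protein needed for cross-presentation by cDC1, was higher in every DC subset than in macrophages. It measured 10.94, 10.88 and 10.94 in CD103 single-positive DCs, 10.25, 10.39 and 10.33 in double-positive DCs, 10.07, 10.24 and 10.24 in CD11b single-positive DCs and 10.38, 10.15 and 10.43 in double-negative DCs. Macrophages measured 8.01, 7.77 and 7.42. The CD103 single-positive arrays lay above and the macrophage arrays below all others. The difference from CD103 single-positive DCs was -0.60 in double-positive DCs (SE 0.08, adjusted p = 0.00039) and -0.74 in CD11b single-positive DCs (SE 0.08, adjusted p = 8.1e-05), and macrophages fell by 2.70 under the DC mean (SE 0.10, adjusted p = 3.6e-11, limma), 6.51-fold. Its second probeset gave -0.93, -1.22 and -2.93 in these contrasts, and the second of these values passed both thresholds where the probeset used here did not. Sec61a1, a channel subunit proposed for export of antigen to the cytosol, and Sec22b, which brings membrane of the endoplasmic reticulum to phagosomes, did not pass in any contrast. Sec61a1 was highest in double-negative DCs, at 9.34, 10.18 and 9.64, with a difference of 0.45 (adjusted p = 0.059), beside the plasma cell genes given above, whose part in it was not tested.

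The 2 class I-like molecules were dim. Cd1d1, which shows lipids to NKT cells, measured 5.95, 5.52 and 5.73 in macrophages, 5.02, 5.42 and 5.83 in double-positive DCs and 5.24, 5.32 and 5.16 in CD11b single-positive DCs. It measured 4.28, 4.81 and 4.90 in CD103 single-positive DCs and 3.97, 4.58 and 4.39 in double-negative DCs. The CD11b- subsets overlap with each other and lie below the CD11b+ cells. The test for any difference gave an adjusted p of 0.00045 (limma). Mr1, which shows vitamin B metabolites to MAIT cells, had means of 3.97 to 4.13 in DCs and of 4.74 ± 0.40 in macrophages, 0.69 higher (SE 0.12, adjusted p = 0.00031, limma). The Mr1 levels in DCs lay under the array median. Those in macrophages, at 4.66, 4.38 and 5.17, lay around it (4.74 to 4.86).

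Between the CD11b+ DC subsets, which differ by CD103, no member passed. The test was limma, and 0.537% of all genes passed (1.21% with no minimum size). At an unadjusted p under 0.05 with no minimum size there were 5 members (2 higher and 3 lower), against 12.5% of all genes. The simpler test named in the study's methods was run with the size threshold, which no member reached, so it could call none. Tap1 differed by -0.39 with a 95% interval from -0.69 to -0.09. Double-negative DCs likewise had no member past the size threshold against the mean of the other subsets, where 1.02% of all genes passed. By p alone there was 1, H2-Oa, against 3.19% of all genes. With no minimum size 10 members had an unadjusted p under 0.05 (8 of them lower), against 15.1% of all genes. Again no member reached the size threshold (Cd1d1 differed by -0.80), so the simpler test could call none. The median difference of double-negative DCs over the members was -0.10, against -0.01 over all genes.

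In macrophages minus DCs 4 members passed with a difference over 1, Lgmn upwards and H2-Oa, H2-Ob and Wdfy4 downwards, where 5.57% of all genes passed (3.38% higher and 2.19% lower). By p alone there were 12, with 6 in each direction, against 17.6% of all genes (8.44% higher and 9.2% lower). Besides those given above they were Canx, 0.32 higher, and Psmb9, Psme1 and Tap1, which differed by -0.50, -0.31 and -0.58. The median over members was 0.06 and that over all genes -0.0045. Of the 15 proteasome genes outside the members all were below 0 in macrophages, with a median of -0.45, and none was called.

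For Lgmn and Tap1 the difference between CD11b+ and CD11b- DCs was not the same among CD103+ as among CD103- DCs, by a test that did not hold without some arrays. Lgmn was 2.01 higher in CD11b+ than in CD11b- cells among CD103+ DCs and 0.81 higher among CD103- DCs, and the difference of differences was 1.20 (SE 0.19, adjusted p = 0.0016, limma). For Tap1 the steps were -1.28 and -0.11, and their difference was -1.17 (SE 0.23, adjusted p = 0.00747). These were 2 of 34 members, where 1.97% of all genes passed. Without the pancreas-rich arrays neither passed, and Tap1 did not pass when any 1 of 10 DC arrays was left out, that is any except replicate 3 of the double-positive and replicate 3 of the double-negative DCs. Double-negative DCs, which enter this comparison, carried the plasma cell and plasmacytoid DC genes given above. In these DCs the mean of 10 cDC1 genes was 8.45 to 8.87. It was 7.09 to 7.58 in the CD11b+ DC subsets and 10.14 to 10.34 in CD103 single-positive DCs. The part of such genes' cells in the comparison was not tested.

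Genes beside the members, listed by pathway, showed where else the machinery moved. All 6 endosomal proteases were higher in macrophages than in DCs, with a median of 1.51. Of these 4 were called, where 3.38% of all genes were called higher: Ctsd by 2.61, Ctsl by 2.52, Ctsb by 1.92 and Ctss by 1.10. Ctss, cathepsin S, which was picked after its values were seen, trims the invariant chain in DCs, and measured 11.83, 11.84 and 11.69 in macrophages against 9.79, 10.33 and 10.30 in CD103 single-positive DCs. In both comparisons with CD103 single-positive DCs Ctsz was called, 1.11 and 1.05 higher, and Ctsd in CD11b single-positive DCs, 1.38 higher. In double-negative DCs Ctsd was 1.16 above the mean of the other subsets.

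Of 14 other genes of cross-presentation, macrophages had 2 called higher and 2 lower. The mannose receptor Mrc1 rose by 6.13 and Cybb, the NADPH oxidase chain, by 2.05, while Ly75 (DEC-205) fell by 2.02. Against CD103 single-positive DCs, Cybb was 3.91 higher in double-positive and 4.26 higher in CD11b single-positive DCs, and Clec9a, a receptor for dead cells that is also a cDC1 marker, differed by -4.69 and -3.96. Between the CD11b+ subsets Ly75 was 1.16 higher and Mrc1 2.06 lower (log2 difference -2.06) in double-positive DCs. In double-negative DCs Clec9a was 1.56 and Cybb 1.04 above the mean of the other subsets, though Clec9a was higher in CD103 single-positive DCs and Cybb in both CD11b+ subsets.

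Of 7 measured genes of IFN-gamma signalling only Jak2 was called in any of these contrasts. It measured 7.43, 7.66 and 7.86 in macrophages and 9.73 to 10.01 on the 12 DC arrays, and fell by 2.20 (SE 0.09, adjusted p = 7.0e-11, limma). Of 9 other factors listed for class II promoters, Irf4 was 3.29 and 2.70 higher in the CD11b+ subsets than in CD103 single-positive DCs. Irf8 differed by -4.05 and -3.68 in the same comparisons, and a link of either to class II levels was not tested. In double-negative DCs Irf8 was 1.11 above the mean of the other subsets, though below CD103 single-positive DCs (means of 10.07 and 11.54), and in macrophages Irf4 fell by 1.08. Of the NF-Y subunits that read the Y box none was called. Of 4 genes of class II turnover, Marchf8, a ligase that sends class II to lysosomes, rose by 1.18 in macrophages, and of 12 other class I genes H2-M2 rose by 2.01, from DC means of 3.52 to 3.92 to 6.57, 4.67 and 6.06 on the macrophage arrays. Of 6 cytosolic peptidases Lap3 was called in 1 comparison, at -1.05 in double-positive minus CD103 single-positive DCs, and of 2 other class II genes none was called.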

How the data were processed

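RNA from sorted cells of 5 populations, was amplified and hybridised to GeneChip Mouse Gene 1.0 ST arrays, 15 in all. The authors deposited log2 expression values per probeset, normalised by robust multi-array averaging (RMA); the RMA version and genome build are not given in the sources used here. Arrays carry no read depth, so the number of arrays limits the precision. Of 35556 probesets 23410 were annotated by the platform table, 21789 with 1 gene symbol and 1621 with several, and 12146 were not listed. Probesets with 1 symbol were used, and where a gene had several (999 genes) the probeset with the highest mean was taken, leaving 19938 genes. Replicates correlated at 0.978 to 0.995. The study calls its replicates biological; how many mice stood behind each array is not given, and p-values measure the spread between these arrays.

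Differences were fitted across all genes with limma 3.58.1 (R 4.3.3) and Benjamini-Hochberg adjustment. Comparisons among double-positive, CD103 single-positive and CD11b single-positive DCs used those 9 arrays and all others 15 arrays. A gene was called at an adjusted p under 0.01 with an absolute log2 difference over 1, the thresholds the study used in plotting its array data. All measured members could be named, and of each other pathway list up to 3 genes with the largest difference among those called in a comparison, besides the sort genes and cell type markers. The members and lists were chosen with earlier results of these data known. On simulated data with 200 of 19938 genes changed by 1.5 log2 units, 86.5% (interaction of CD103 and CD11b) to 99.5% (macrophages against DCs) were recovered. Smaller changes, the size of most member differences given here, were not simulated. Alternatives were the thresholds, the choice of probeset, the filter on dim genes, the fit, the methods' t-test, a replicate block and leaving out each array. The interaction, the fits per probeset and the fits without pancreas-rich arrays were added after seeing the data. Sequences are RefSeq promoters (GRCm38.p6).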

Additional observations from a re-analysis of the deposited data

Results flagged for a closer look

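The step between CD11b+ and CD11b- DCs differed with CD103 for Lgmn and Tap1. For Lgmn the difference of the differences was 1.20 (SE 0.19, adjusted p = 0.0016, limma), from 2.01 among CD103+ and 0.81 among CD103- DCs. For Tap1 it was -1.17 (SE 0.23, adjusted p = 0.00747, limma), from -1.28 among CD103+ and -0.11 among CD103- DCs. Leaving out 1 array at a time, Tap1 passed only without replicate 3 of the double-positive, replicate 3 of the double-negative or any 1 of the macrophage arrays, and without the most pancreas-rich array of each population neither gene passed. The 3 arrays of double-negative DCs entering both values had a mean of plasma cell genes of 9.10 to 9.95. Their mean of plasmacytoid DC genes was 7.94 to 8.20, and the part of either in these differences was not tested.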

How the results depend on the processing

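With no minimum log2 difference the members called were 9 in double-positive minus CD103 single-positive DCs, 7 in CD11b single-positive minus CD103 single-positive DCs, 1 in double-negative DCs, 12 in macrophages and 14 for any difference. When each population lost its most pancreas-rich array, an alternative chosen after seeing the data, 2 members were called in CD11b single-positive minus CD103 single-positive DCs and 0 for the interaction of CD103 and CD11b. Leaving out 1 array at a time, the interaction called 1 to 2 members, and Lgmn stayed between 1.08 and 1.29. The other 130 planned counts stayed within 1.5 times the reported one, and all 160 planned values of single members kept their direction and their side of the threshold. With the replicate number as a block 2, 1, 0, 0, 4 and 6 members were called in the planned comparisons, as without it. Same-numbered arrays correlated above 0.1 in 18 of 30 pairs, with a mean of 0.12 against -0.06 for other numbers. The lowest same-numbered pair was at -0.09, and the numbers were not taken to pair arrays. The most pancreas-rich array was replicate 3 in CD11b single-positive DCs and replicate 2 in every other population. Whether same-numbered arrays shared a preparation was not tested. Cd1d1 was not tested when genes with no population mean over 6 were left out, and 5 members then passed for any difference.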
